A study of Rattus norvegicus with 39 samples.

Results

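RNA splicing and translation genes are described here across polyribosome-bound mRNA libraries from the nucleus accumbens (NAc) of female rats. Members were chosen by name: every identifier that could be paired with a symbol and whose symbol begins with Srsf, Sf3, Snrp, Hnrnp, Clk, Rbm, Ddx, Dhx, Prpf, U2af, Cpsf, Lsm, Rpl, Rps, Eif or Eef, plus Jmjd6, with at least 10 counts in 5 or more libraries. Of 44 identifiers with such a name, 40 met the count limit, among 1966 paired identifiers and 23978 identifiers in all. Symbols were paired through the part of the authors' tables that was read, which follows the order of the identifiers, so most members of these families are not analysed here. The members comprise 4 serine/arginine-rich (SR) proteins and their kinase, 6 spliceosome genes, 5 heterogeneous nuclear ribonucleoprotein (hnRNP) genes, 4 other RNA-processing genes, 5 ribosome biogenesis genes, 6 ribosomal protein genes, 5 translation factors, and 5 kinases and modifiers of translation.

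Heterozygous D1-Cre (Drd1a-iCre) and D2-Cre (Drd2-iCre) adult Long Evans females were infused in the NAc with an AAV9 that carries a Cre-dependent, HA-tagged ribosomal protein, Rpl22 (RiboTag). The HA tag was used to pull down ribosomes, with their mRNA, from neurons that carry the dopamine D1 or D2 receptor promoter's Cre. Treatments were 6 injections of saline or of ketamine at 10 mg/kg, given 4 or 5 days apart in proestrus or in diestrus, and the tissue was taken 4 days after the last one, after a return to the test chamber without drug. Each of the 8 groups (cell type by stage by treatment) holds 5 libraries, 1 per rat, except ketamine-treated proestrus D2 rats with 4, since the authors excluded 1 library. All rats, controls included, carried Cre and the virus, ketamine-treated rats were taken for sequencing by their rise in locomotor activity, and the sources used here give no age in weeks.

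Total counts ranged from 2396517 in diestrus D2 saline library 39 to 43224256 in proestrus D2 ketamine library 22, with a median of 20494896 over 39 libraries. Adora2a, a defining gene of D2-type neurons and the single neuron-subtype marker that could be paired, ranged from 776 to 1063 CPM (counts scaled to the normalized library total) in the D2 saline and from 149 to 208 in the D1 saline libraries. In ketamine-treated rats it ranged from 452 to 1012 CPM in D2 and from 141 to 221 in D1 libraries; the lowest D2 value, in diestrus library 32, stood below the next, 764. Of genes common to both kinds of medium spiny neuron, Gad1 was called lower in D2 saline libraries (log2 difference -0.11, adjusted p = 0.0591 by edgeR) and Rgs9 higher (0.23, adjusted p = 0.00176 by edgeR). None of 6 listed D1 markers could be paired. The glial and endothelial markers used here were Gfap, Gja1, Mog, Aif1 and Flt1, none was at 0 in any library, and their summed level moved with cell type: it ranged from 38.5 to 60.1 CPM in D1 saline and from 55.0 to 144 in D2 saline libraries, and from 43.3 to 57.6 in D1 ketamine and 48.8 to 101 in D2 ketamine libraries. The interneuron genes Sst and Nos1 went the other way, Sst with a median of 367 CPM in D1 and 131 in D2 saline libraries. Their part in the results below was not tested, apart from the values given beside them.

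As background, pre-mRNA introns are removed by the spliceosome, whose choice of splice sites is steered by SR proteins and hnRNPs. SR proteins are phosphorylated by kinases such as Clk4, which changes where they sit in the nucleus and how they act. The mature mRNA is then read by ribosomes, whose protein genes are among the most highly expressed genes of a cell, with initiation factors loading the ribosome and kinases such as Eif2ak1 slowing initiation under stress. In neurons these steps are known for setting receptor and channel isoforms and for activity-dependent protein synthesis at synapses.

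Many ribosomal protein mRNAs start with a C followed by an unbroken stretch of C and T, the 5′ terminal oligopyrimidine (TOP) motif, through which mTOR signalling controls their translation. Since the members include 6 ribosomal protein genes and the RNA was taken from ribosomes, their start sites are shown as 30 bases each from RefSeq (GRCr8), 5′ to 3′, beginning 15 bases before the annotated start base. Capitals mark the unbroken run of C and T that includes the start base, and a window with no capitals starts on A or G.
Rpl10a (chr20:6390518-6390547, + strand): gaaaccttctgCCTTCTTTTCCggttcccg
Rplp0 (chr12:46718376-46718405, - strand): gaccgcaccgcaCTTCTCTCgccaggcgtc
Rps10 (chr20:5700730-5700759, - strand): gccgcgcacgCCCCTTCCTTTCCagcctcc
Rps4x (chrX:71342907-71342936, - strand): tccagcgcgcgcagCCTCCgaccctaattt
Rpl21 (chr12:13386139-13386168, - strand): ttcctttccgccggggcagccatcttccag
Rpl24 (chr11:58128391-58128420, - strand): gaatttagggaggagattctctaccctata
A C at the start base followed by at least 4 bases of C or T was found for Rpl10a and Rplp0, which is 2 of the 6 genes, and at 2.63% of all 33469 start sites in the same table, each searched on its own strand. Among the 39 start windows of 37 members that could be matched, 4 had it, the others being 1 of the Hnrnpdl windows and that of Rbm25. The run in Rps10 is the longest of the 6, and its annotated start base is T.

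The first comparison asked how the members differ between D2 and D1 neurons of saline-treated rats, with cycle stage in the model. Of 39 members tested, 11 were called (edgeR quasi-likelihood test, adjusted p under 0.1), 10 with a D2 bias and 1 with a D1 bias. Srsf9, Srsf3, Prpf8, Rbm25, Hnrnph1, Rbmx, Rbms2, Cpsf4, Ddx55 and Rps10 were higher in D2, and Eif2ak1 was lower. Genes of splicing and RNA processing were 8 of the 11 called and 19 of the 39 tested, a difference that was not tested. The share called, 28.2%, was near the background of 28.8% over all 13689 genes tested, of which 14.6% had a D2 bias and 14.1% a D1 bias. The members' median log2 difference was 0.03, beside 0.0005 over all genes.

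**Figure D1:**
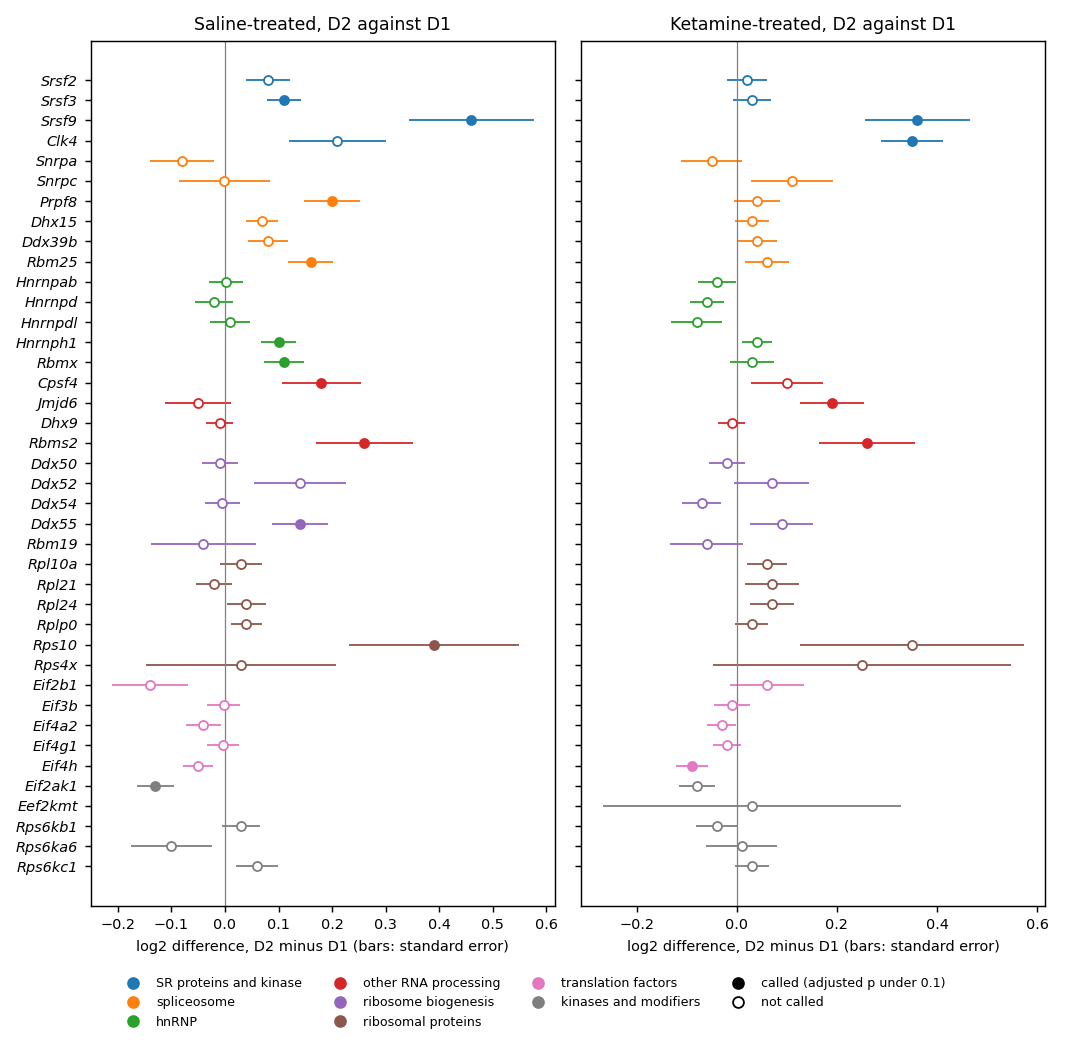
Log2 difference (x axis, D2 minus D1) of each member (y axis, by role) in saline-treated rats at left (10 D2 and 10 D1 libraries) and ketamine-treated rats at right (9 and 10); bars are standard errors, and filled points were called at an adjusted p under 0.1. Srsf9 and Rbms2 are filled and to the right of 0 in both panels, and most members lie within 0.2 of 0.

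SR proteins bind exonic enhancers and help to define exons. Srsf9 was 3.77, 5.6 and 7.5 CPM (lowest, median and highest) in the 10 D1 saline libraries and 5.80, 7.26 and 10.4 in the 10 D2 saline libraries. The ranges overlapped between 5.80 and 7.5. The log2 difference was 0.46 (standard error 0.116, adjusted p = 0.00721 by edgeR). Within proestrus the difference of mean log2 CPM was 0.57 (exact permutation test, 2-sided, p = 0.0159, n = 5 and 5), and within diestrus 0.26 (exact permutation test, p = 0.151, n = 5 and 5). These 2 belong to 32 such tests within a stage. They were run on members already called in the same libraries, so that low p follow in part from that choice and are given as a description of each stage, not as further evidence. They are not adjusted and cannot go below 0.00794 with 5 against 5 libraries or 0.0159 with 4 against 5. Srsf9 was not called without proestrus D1 library 1 or 17 or diestrus D2 library 39, where its difference was between 0.26 and 0.31. Across the 39 libraries its deviations from the group means had a Pearson correlation of 0.60 with the summed glial and endothelial markers, a description over libraries that also differ in depth. In bulk libraries like these, fewer tagged cells of a type and less RNA per cell cannot be told apart.

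Srsf3, an SR protein that also aids mRNA export, ranged from 138 to 159 CPM with a median of 147 in D1 and from 146 to 170 with a median of 158 in D2 saline libraries. Of the D2 libraries, 5 were above every D1 library. This gave a log2 difference of 0.11 (standard error 0.0323, adjusted p = 0.0229 by edgeR), called in 16 of the 20 fits that left out 1 library. The difference was down to 0.04 in the other 4 of these, and 0.0045 in a single model of the 39 libraries (adjusted p = 0.971 by edgeR). Srsf2, another SR protein, was not called, at 0.08. Clk4, the SR protein kinase, was 16.1 to 25.7 CPM in D1 and 21.0 to 33.5 in D2 saline libraries, and missed the threshold with a log2 difference of 0.21 and an adjusted p of 0.11 by edgeR. With 1 library left out its difference lay between 0.04 and 0.22. It was called without diestrus D2 library 15 and in 1 of the 10 other alternatives.

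Among spliceosome genes, Prpf8 encodes the large protein at the catalytic centre and Rbm25 a regulator tied to the U1 particle. Prpf8 was 210, 271 and 283 CPM (lowest, median, highest) in D1 and 269, 299 and 349 in D2 saline libraries. Of the D2 libraries, 7 lay above the highest D1 library. The log2 difference was 0.20 (standard error 0.0528, adjusted p = 0.0111 by edgeR). Rbm25 was 96.3, 108 and 126 CPM in D1 and 112, 119 and 143 in D2 saline libraries, with a log2 difference of 0.16 (standard error 0.0416, adjusted p = 0.0101 by edgeR). Its lowest D2 library stood above the D1 median, and the ranges overlapped. The difference of Rbm25 was 0.07 without proestrus D1 library 1 or diestrus D2 library 39, and 0.10 in the single model, with no call. That of Prpf8 was 0.13 without library 1 and 0.11 in the single model, also with no call. In proestrus alone Prpf8 differed by 0.25 and Rbm25 by 0.17 (exact permutation tests, p = 0.0159 for each), and in diestrus by 0.16 and 0.13 (exact permutation tests, p = 0.0556 and p = 0.103). The U1 proteins Snrpa and Snrpc and the helicases Dhx15, which releases spent spliceosomes, and Ddx39b, an early assembly and export factor, were not called, and lay between -0.08 and 0.08.

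hnRNPs bind intronic and exonic silencers as well as nascent RNA. Hnrnph1, which binds runs of G, was 241, 261 and 288 CPM in D1 and 260, 284 and 300 in D2 saline libraries, a log2 difference of 0.10 (standard error 0.0323, adjusted p = 0.0308 by edgeR). Rbmx, the X-linked hnRNP G, was 50.5, 55.0 and 60.5 CPM in D1 and 54.5, 59.3 and 67.8 in D2 saline libraries, a log2 difference of 0.11 (standard error 0.0375, adjusted p = 0.0339 by edgeR). Both pairs of ranges overlapped, and each gene was called in 13 of the 20 fits that left out 1 library, with log2 differences down to 0.03 for Hnrnph1 and 0.04 for Rbmx. Hnrnpab, Hnrnpd and Hnrnpdl were not called, and the median over the 5 hnRNP genes was 0.01.

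Rbms2, an RNA-binding protein, was 5.29, 6.38 and 8.32 CPM in D1 and 6.72, 7.87 and 8.81 in D2 saline libraries. In diestrus the groups did not overlap, with D2 on top, and the difference of mean log2 CPM was 0.28 (exact permutation test, p = 0.00794, n = 5 and 5). In proestrus it was 0.23 (exact permutation test, p = 0.143, n = 5 and 5). The share of all genes without overlap within a stage was not computed. The log2 difference of Rbms2 was 0.26 (standard error 0.0908, adjusted p = 0.0425 by edgeR), called in 16 of the 20 fits that left out 1 library. Cpsf4, a subunit of the cleavage and polyadenylation complex, ranged from 12.6 to 17.3 CPM in D1 and from 13.6 to 19.7 in D2 saline libraries, with a log2 difference of 0.18 (standard error 0.0741, adjusted p = 0.087 by edgeR). It was called in 2 of the 20 fits that each left out 1 library, with differences down to 0.07 without proestrus D1 library 1, and in 6 of the 10 other alternatives. Jmjd6, a hydroxylase of splicing factors, and Dhx9, an RNA helicase, were not called, at -0.05 and -0.01.

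Of the ribosome biogenesis genes, the helicase Ddx55 ranged from 14.1 to 17.2 CPM in D1 and from 14.6 to 20.4 in D2 saline libraries, and 6 D2 libraries were above every D1 library. Its log2 difference was 0.14 (standard error 0.0521, adjusted p = 0.0572 by edgeR), and it was called in 6 of the 20 fits that each left out 1 library and in 7 of the 10 other alternatives. Ddx50, Ddx52, Ddx54 and Rbm19 were not called. Rps10, of the small ribosomal subunit, was 16.3, 19.7 and 38.9 CPM in D1 and 13.7, 34.6 and 37.5 in D2 saline libraries. Its lowest value of the 20 was in a D2 library and its highest in a D1 library. This gave a log2 difference of 0.39 (standard error 0.159, adjusted p = 0.0902 by edgeR), called in 7 of the 20 fits that left out 1 library and in 5 of the 10 other alternatives. Ribosomal protein genes have near-identical processed copies between which reads may be split, so the values of Rps10 and the other ribosomal protein genes are uncertain.

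Eif2ak1, the heme-regulated kinase that phosphorylates the initiation factor eIF2, was the member with a D1 bias. It was 104, 113 and 122 CPM in D1 and 93.3, 102 and 113 in D2 saline libraries, and 6 D2 libraries were below every D1 library. The log2 difference was -0.13 (standard error 0.0344, adjusted p = 0.0113 by edgeR). It stayed past the threshold in each of the 20 fits that left out 1 library. In proestrus it differed by -0.12 (exact permutation test, p = 0.0397) and in diestrus by -0.15 (exact permutation test, p = 0.0159). None of the 5 translation factors was called, and their log2 differences lay between -0.14 and -0.0026, with a median of -0.04; the lowest was that of Eif2b1, a subunit of the eIF2 exchange factor. Eif3b, a core subunit of the factor that holds the small subunit ready for mRNA, was at -0.0026. The ribosomal S6 kinase genes Rps6kb1, a target of mTOR signalling, and Rps6ka6, and the related Rps6kc1, were not called, at 0.03, -0.10 and 0.06, and Eef2kmt had too few counts to be tested there. Scaling by total counts, which moved the median of all genes to 0.02, moved the translation factors' median to -0.03.

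The number of members called in saline rats rested on single libraries. It was 1 (Eif2ak1) without proestrus D1 library 1 or diestrus D2 library 39, 2 without proestrus D1 library 17, 4 without proestrus D2 library 5, and 7 without diestrus D1 library 3, proestrus D1 library 25 or diestrus D2 library 7. The other 13 such fits called between 8 and 13. The share of all genes called also fell, from 28.8% to 8.96% without library 1, 13.9% without library 39, 11.4% without library 17 and 17.7% without library 5. Srsf9, Prpf8 and Rbm25 were lost without libraries 1, 17 and 39, and were called in the other 17 fits. In a single model of all 39 libraries 3 members were called, Eif2ak1, Rbms2 and Srsf9, beside 13.1% of all genes.

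**Figure D2:**
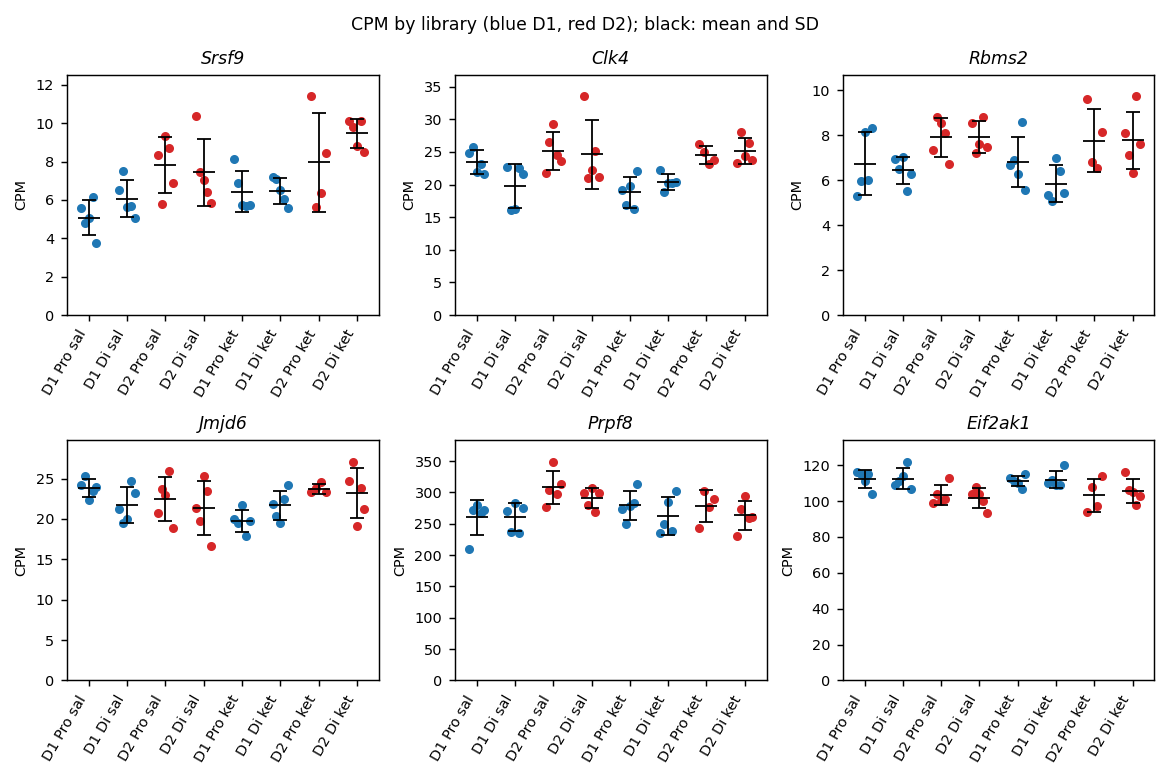
CPM (y axis, from 0) of 6 members in each library of the 8 groups (x axis; Pro, proestrus, Di, diestrus, sal, saline, ket, ketamine); black marks are the mean and SD over 5 libraries, 4 in D2 Pro ket. In the ketamine groups the lowest D2 library for Clk4, at 23.2, is above the highest D1 library, at 22.3.

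The second comparison asked the same of ketamine-treated rats, which are other animals and share no library with the first. Of 40 members tested 5 were called: Srsf9, Clk4, Jmjd6 and Rbms2 with a D2 bias and Eif4h with a D1 bias. The share, 12.5%, was below the background of 18.0% of 13850 genes, of which 8.16% had a D2 and 9.83% a D1 bias. The median log2 difference was again 0.03 for the members and 0.0003 for all genes.

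Clk4 was 16.2, 19.9 and 22.3 CPM (lowest, median, highest) in the 10 D1 and 23.2, 24.4 and 28.1 in the 9 D2 ketamine libraries. The groups did not overlap. This gave a log2 difference of 0.35 (standard error 0.0613, adjusted p = 0.000279 by edgeR), and it was 0.38 in proestrus and 0.30 in diestrus (exact permutation tests, p = 0.0159 and p = 0.00794). Clk4 was the single member of 40 whose D2 and D1 libraries did not overlap, beside 1.34% of all genes; among saline libraries no member of 39 did so, beside 1.64% of all genes. It was called in every alternative and in each of the 19 fits that left out 1 library, with a log2 difference between 0.31 and 0.38. Its deviations from the group means had a correlation of 0.54 over 39 libraries with the summed glial and endothelial markers.

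Srsf9 was 5.6, 6.29 and 8.13 CPM in the D1 and 5.65, 8.84 and 11.4 in the D2 ketamine libraries. All 5 diestrus D2 libraries, between 8.51 and 10.1, were above every diestrus D1 library, and proestrus D2 libraries 22 and 30, at 5.65 and 6.34, lay within the D1 range. The log2 difference was 0.36 (standard error 0.105, adjusted p = 0.0226 by edgeR), and it was called in each of the 19 fits that left out 1 library. Rbms2 was 5.06, 6.33 and 8.58 CPM in D1 and 6.30, 7.59 and 9.73 in D2, a log2 difference of 0.26 (standard error 0.0961, adjusted p = 0.074 by edgeR) that was called in 10 of 19 such fits. These were the 2 members called in both treatments.

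Jmjd6 was 17.9, 20.2 and 24.2 CPM in D1 and 19.1, 23.9 and 27.1 in D2 ketamine libraries, with a log2 difference of 0.19 (standard error 0.0644, adjusted p = 0.0545 by edgeR). It was not called without diestrus D2 library 16 or proestrus D1 library 26, nor with sets of 8 library numbers as a block (adjusted p = 0.103 by edgeR). It differed by 0.26 in proestrus, where D2 and D1 did not overlap (exact permutation test, p = 0.0159), and by 0.09 in diestrus (exact permutation test, p = 0.397). Rbm25 in diestrus and Hnrnpd in proestrus, neither of them called, also did not overlap in ketamine rats, with D1 on top for Hnrnpd. For these, as for Jmjd6 and Srsf9, the share of all genes without overlap within a stage was not computed. Eif4h, which helps the helicase eIF4A to unwind mRNA leaders, was 362, 373 and 386 CPM in D1 and 323, 358 and 386 in D2, a log2 difference of -0.09 (standard error 0.0317, adjusted p = 0.0787 by edgeR). It was called in 11 of the 19 fits that left out 1 library and in 5 of the 10 other alternatives. It was not called with the block, with no surrogate variable, with no filter on low counts, at a threshold of 0.05 or in the single model. Without diestrus D2 library 32, the one lowest in Adora2a, Clk4, Srsf9, Jmjd6 and Eif4h were called and Rbms2 was not. The number of members called was 3 without diestrus D1 library 4, 12 or 28, proestrus D2 library 6 or diestrus D2 library 40, and 4 to 7 in the other 14 fits.

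Side by side, all 11 members called in saline rats had the same sign in ketamine rats (Prpf8 turned to a value at or below 0 in 3 alternative fits), and 2 of the 11 (18.2%) were called there; of all 3933 genes called in saline and tested in both, 85.7% had the same sign and 37.7% were called. Prpf8 was one of those that came close to 0: its D2 ketamine libraries ranged from 230 to 302 CPM with a median of 273, and its D1 libraries from 236 to 313 with a median of 276. Its log2 difference there was 0.04, against 0.20 in saline rats. Whether the cell-type difference of a member differed between treatments was tested by an interaction over all 39 libraries, and no member of 40 was called, with 0% of 14129 genes called by edgeR. An unadjusted p under 0.05 was found for 2 members and 326 genes, and DESeq2 called 1 gene and no member. The 2 members with the lowest p were Eif2b1 (log2 difference 0.25, standard error 0.112) and Jmjd6 (0.21, standard error 0.0977), both with an adjusted p of 1 by edgeR.

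Other genes of these pathways, taken from a list of 38 with 37 tested, were counted in the same fits. In saline rats 12 were called (32.4%, beside 28.8% of all genes), 9 with a D2 bias (24.3%, beside 14.6%) and 3 with a D1 bias. Of 12 splicing genes tested, Rbfox1, Son, Luc7l3, Sfswap and Syncrip had a D2 bias and none a D1 bias; the median over the 12 was 0.08, and whether they stand apart from other genes was not tested. Rbfox1, a neuronal splicing regulator, differed by 0.16 (standard error 0.039, adjusted p = 0.00523 by edgeR) and Son, a scaffold of nuclear speckles, by 0.16 (standard error 0.038, adjusted p = 0.00569 by edgeR). Of 8 translation genes, Aimp2 and Denr had a D1 bias, at -0.16 and -0.13. In ketamine rats 4 of the 37 were called (10.8%, beside 18.0% of all genes), Luc7l3 (0.18) and Slx9 (0.22) with a D2 and Eftud2 (-0.18) and Gnl3l (-0.08) with a D1 bias.

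Ketamine was compared with saline within each cell type and stage, 4 days after the last dose. No member was called in any of the 4 comparisons by edgeR or by DESeq2, with 39 or 40 members tested in each. Rbm3, which the authors report as raised by ketamine in proestrus D1 neurons, could not be paired and is not among these members. The background was 0.00759% of 13183 genes in proestrus D1, 0.0227% of 13214 in diestrus D1, 0% of 13414 in proestrus D2 and 0% of 13455 in diestrus D2. An unadjusted p under 0.05 was found for 5 members in proestrus D1, 2 in diestrus D1, 1 in proestrus D2 and 0 in diestrus D2, beside 764, 352, 457 and 355 genes. The members' median log2 differences were 0.0024, -0.01, 0.01 and -0.01 in that order. DESeq2 called 16, 10, 1 and 0 genes in the same comparisons, none of them a member.

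**Figure D3:**
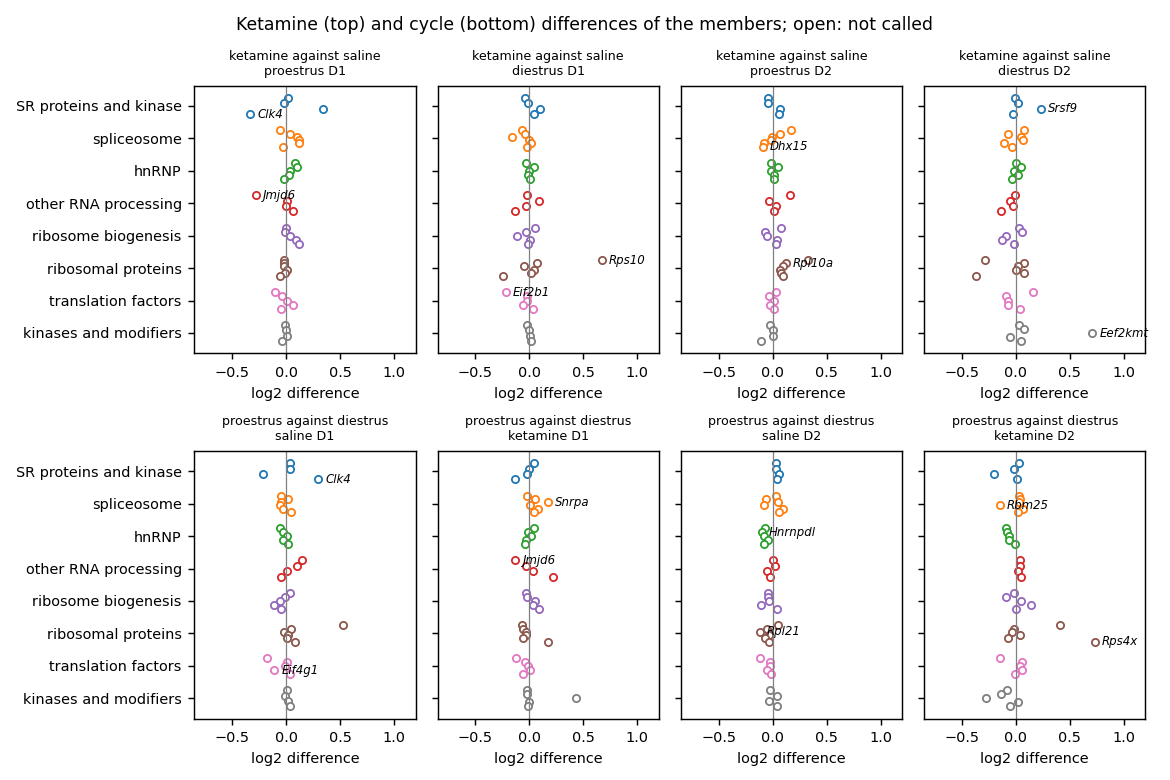
Log2 differences (x axis) of the members, grouped by role (y axis), for ketamine minus saline (top) and proestrus minus diestrus (bottom) in each cell type; each open point is a member, none was called, and the 2 members with the lowest p are named in each panel. In proestrus D1 Clk4 at -0.33 and Jmjd6 at -0.28 lie left of the rest, and most members of every panel lie near 0.

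In proestrus D1 neurons the 2 members with the lowest p were Jmjd6 and Clk4. Jmjd6 was 24.2, 25.3, 22.3, 23.5 and 24.0 CPM in the saline libraries and 20.0, 19.5, 21.7, 17.9 and 19.8 in the ketamine libraries. Each ketamine library was below each saline library, and it was the single member of 39 without overlap, beside 0.728% of all genes. This gave a log2 difference of -0.28 (standard error 0.0665, adjusted p = 0.599 by edgeR). Clk4 was 24.9, 25.7, 21.9, 23.2 and 21.6 CPM with saline and 19.1, 16.9, 19.7, 16.2 and 22.1 with ketamine, so that 1 ketamine library overlapped. Its log2 difference was -0.33 (standard error 0.0863, adjusted p = 0.609 by edgeR). Both fail the adjustment over all genes. Srsf9 (0.34), Prpf8 (0.12) and Rbm25 (0.12) were the other members with an unadjusted p under 0.05, at adjusted p of 0.824, 0.751 and 0.847 by edgeR.

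In diestrus D1 neurons the same 2 genes did not show such values: Jmjd6 averaged 21.7 CPM with saline and 21.7 with ketamine, and Clk4 19.8 and 20.4. The interaction of ketamine with cycle in D1 neurons was -0.40 for Clk4 (standard error 0.131, adjusted p = 0.972 by edgeR) and -0.28 for Jmjd6 (standard error 0.102, adjusted p = 0.972 by edgeR). Neither was called, as was no member of 40 and 0% of 13593 genes by edgeR, although 4 members and 668 genes had an unadjusted p under 0.05 and DESeq2 called 6 genes. These contrasts share the proestrus D1 saline libraries, whose means of 23.9 CPM for Jmjd6 and 23.5 for Clk4 were the highest of the D1 groups. In D2 neurons the same interaction called no member of 40 and 0% of 13881 genes, with 0 members and 243 genes at an unadjusted p under 0.05 and no call by DESeq2. The lowest p there were those of Rbm19, a ribosome assembly factor (0.25, standard error 0.163), and Dhx9 (0.09, standard error 0.06), both with an adjusted p of 1 by edgeR.

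In diestrus D1 neurons the lowest p were those of Rps10 and Eif2b1. Rps10 was 20.2, 17.7, 16.3, 19.2 and 17.2 CPM with saline and 39.7, 21.2, 31.8, 18.5 and 33.8 with ketamine. The lowest ketamine library lay among the saline libraries. The log2 difference was 0.67 (standard error 0.192, adjusted p = 1 by edgeR). Eif2b1 was 27.2, 19.8, 25.1, 21.9 and 19.5 CPM with saline and 20.0, 18.9, 18.3, 22.5 and 18.6 with ketamine, a log2 difference of -0.22 (standard error 0.0932, adjusted p = 1 by edgeR). The ranges overlapped.

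In proestrus D2 neurons Rpl10a, of the large ribosomal subunit, was 94.5, 97.1, 98.3, 104 and 93.2 CPM with saline and 109, 104, 97.7 and 103 with ketamine, a log2 difference of 0.12 (standard error 0.0478, adjusted p = 0.999 by edgeR). The 6 ribosomal protein genes had log2 differences between 0.07 and 0.33 there, with a median of 0.10, and none was called. Dhx15 was next, at -0.09 (standard error 0.0461, adjusted p = 0.999 by edgeR). In diestrus D2 neurons Eef2kmt, which methylates elongation factor 2, was 0.555, 0.371, 0.452, 0.383 and 0.416 CPM with saline and 0.254, 0.634, 1.03, 0.472 and 0.796 with ketamine, at 0.71 (standard error 0.405, adjusted p = 1 by edgeR). At this level its counts are at the limit of the count filter, and the ketamine libraries spread to both sides of the saline ones. Srsf9 followed, at 0.23 (standard error 0.151, adjusted p = 1 by edgeR). With 1 library left out its difference lay between 0.16 and 0.41, and that of Eef2kmt between 0.46 and 0.87. In the other alternatives Eef2kmt went down to 0.40.

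Proestrus was compared with diestrus within each cell type and treatment. No member was called in any of the 4 comparisons by edgeR or DESeq2, with a background of 0% of 13183 genes in saline D1, 0% of 13220 in ketamine D1, 0% of 13340 in saline D2 and 0% of 13595 in ketamine D2. An unadjusted p under 0.05 was found for 3, 1, 1 and 0 members, beside 522, 516, 546 and 469 genes, and DESeq2 called 2, 2, 0 and 4 genes. The members' median log2 differences, proestrus minus diestrus, were 0.01, -0.01, -0.03 and 0.01.

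In saline D1 neurons Clk4 was 24.9, 25.7, 21.9, 23.2 and 21.6 CPM in proestrus and 22.7, 16.1, 16.2, 22.5 and 21.6 in diestrus. The diestrus libraries fell into 2 at 16.1 and 16.2 and 3 within the proestrus range. This gave a log2 difference of 0.30 (standard error 0.0984, adjusted p = 0.999 by edgeR). Eif4g1, the scaffold of the cap-binding complex, was 415, 412, 416, 397 and 383 CPM in proestrus and 416, 438, 431, 428 and 463 in diestrus, a log2 difference of -0.11 (standard error 0.0401, adjusted p = 0.999 by edgeR). Its ranges met at 416. In ketamine D1 neurons Snrpa was 20.6, 18.8, 18.6, 18.5 and 16.8 CPM in proestrus and 15.8, 17.9, 17.5, 16.1 and 15.5 in diestrus, a log2 difference of 0.17 (standard error 0.0764, adjusted p = 0.999 by edgeR), and Jmjd6 was next at -0.13 (standard error 0.0731, adjusted p = 0.999 by edgeR).

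In saline D2 neurons Rpl21 was 140, 140, 140, 136 and 129 CPM in proestrus and 155, 147, 149, 147 and 123 in diestrus, a log2 difference of -0.12 (standard error 0.0403, adjusted p = 0.987 by edgeR). The lowest of the 10 values, 123, was in diestrus library 39, which has the lowest total count. Hnrnpdl followed at -0.10 (standard error 0.0493, adjusted p = 0.987 by edgeR), and the 5 hnRNP genes lay between -0.10 and -0.04, with a median of -0.08. In ketamine D2 neurons they lay between -0.09 and -0.01, with a median of -0.06, and the lowest p were those of Rbm25 (-0.15, standard error 0.0722) and Rps4x (0.73, standard error 0.397), both with an adjusted p of 0.998 by edgeR. Rps4x ranged from 5.53 to 22.7 CPM over these 9 libraries, and its difference was 0.07 without proestrus library 6, which holds the highest value, and up to 0.99 without another library. With 1 library left out, that of Rbm25 lay between -0.30 and -0.10, and that of Hnrnpdl in saline D2 neurons between -0.13 and -0.06. The interaction of cell type with cycle in saline rats called no member of 39 and 0% of 13689 genes, with 0 members and 310 genes at an unadjusted p under 0.05 and no call by DESeq2, and the lowest p were those of Rps10 (-0.60, standard error 0.302) and Clk4 (-0.27, standard error 0.141), both with an adjusted p of 1 by edgeR. With 1 library left out, Rps10 lay between -0.74 and -0.45 and Clk4 between -0.34 and -0.15.

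The median SD of log2 CPM within groups was 0.105 over the 40 members and 0.172 over 14129 genes, and the median fold between the highest and lowest of the 8 group means was 1.11 and 1.19. Translation factors had the lowest values of the roles, with a median SD of 0.072 and a median fold of 1.08. The SD of log2 CPM depends on count level, and the sets compared were not matched for it. Dhx9 had the smallest SD (0.0597) and Eif4a2, a helicase of the cap-binding complex, came next (0.0613), with group means within 1.05-fold. Srsf9 had the widest range of group means after Rps10, 1.81-fold, from proestrus D1 saline to diestrus D2 ketamine. Clk4 (1.34-fold) and Rbms2 (1.33-fold) ranged from D1 ketamine groups, at the bottom, to D2 groups.

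**Figure D4:**
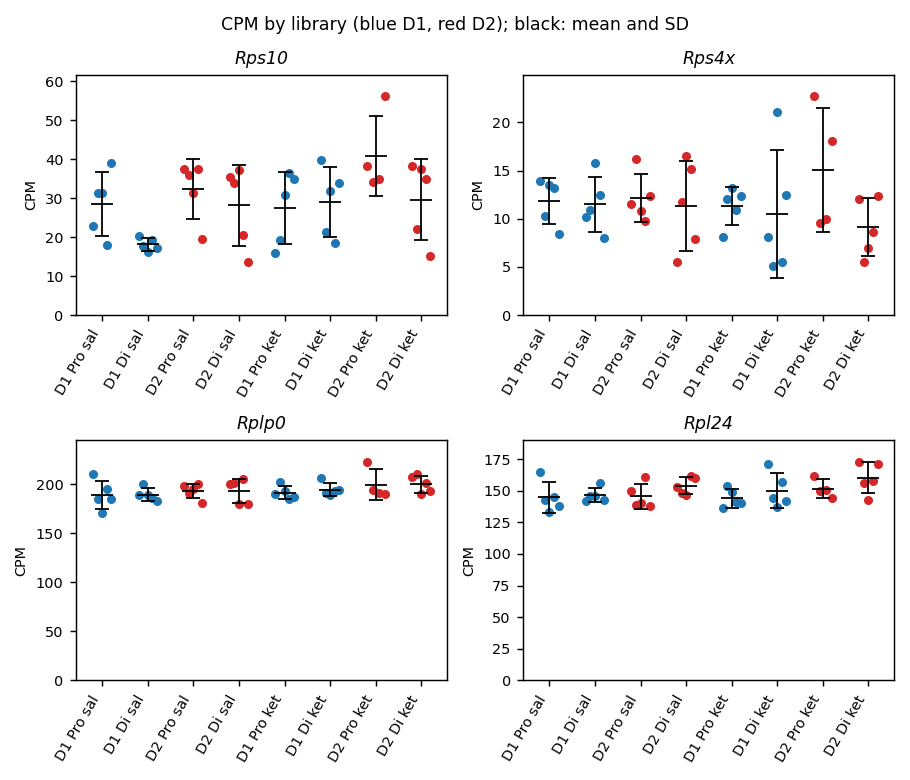
CPM (y axis, from 0) of 4 ribosomal protein genes in each library of the 8 groups (x axis; Pro, proestrus, Di, diestrus, sal, saline, ket, ketamine); black marks are the mean and SD. Rps10 and Rps4x spread widely within groups (SD of log2 CPM 0.458 and 0.496), and Rplp0 and Rpl24 stay close to their means (0.0748 and 0.0931).

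The 6 ribosomal protein genes were of 2 kinds in this respect. Rps10 and Rps4x had within-group SDs of 0.458 and 0.496 on the log2 scale, above those of 95.3% and 96.6% of all genes tested. Rpl10a, Rpl21, Rpl24 and Rplp0 had SDs between 0.0748 and 0.121. Across the 39 libraries, deviations from the group means of these 4 genes moved together, with a mean Pearson correlation of 0.62 over 6 pairs (0.44 to 0.83), a set formed after the values were seen, against a mean of 0.06 over all 780 pairs of members. Over all 15 pairs of the 6 ribosomal protein genes the mean was 0.27 (-0.21 to 0.83). It was 0.27 for the SR proteins and their kinase and 0.30 for the hnRNP genes. Rpl21 and Rplp0 had the highest of all pairs, 0.83 (Spearman 0.78, n = 39). These genes share libraries and depth, so the values are a description. Rpl10a and Rplp0 have the start-site motif shown above, and Rpl21 and Rpl24 do not. Whether the motif bears on these correlations was not tested.

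Among splicing genes Srsf2 went with Ddx39b (0.78), Clk4 (0.64) and Hnrnph1 (0.61), and Hnrnpab with the initiation factor Eif4h (0.81). Clk4 also went with Cpsf4 (0.68). Prpf8 went against Rpl24 (-0.76), Hnrnpab (-0.64) and Rplp0 (-0.63), and Dhx15 against Rplp0 (-0.65). All are Pearson correlations of within-group deviations of log2 CPM over 39 libraries. Several of these genes also moved with the summed glial and endothelial markers: Ddx39b (0.58), Clk4 (0.54), Rplp0 (0.47), Srsf2 (0.44), Cpsf4 (0.43) and, in the other direction, Dhx15 (-0.44). Of the other members with a D2 bias in saline rats, Rbm25 had a correlation of 0.44 with that sum and Ddx55 one of -0.47. The rest lay nearer to 0: Srsf3 (-0.05), Prpf8 (-0.06), Rps10 (0.13), Rbms2 (0.15), Rbmx (0.20) and Hnrnph1 (0.25). The part of these markers in the correlations and in the D2 bias was not tested.

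Members that failed the count limit and the one nearest to it complete the account. Ddx3y and Rbm31y, Y-linked genes, had at most 9 and 0 counts in any of these libraries of females. Rbm47, an RNA-binding protein, had at most 3 counts, and Rpl35-ps8, a pseudogene, at most 5. Just inside, Eef2kmt had 10 or more counts in 18 libraries, with a median of 8 counts, and the other 39 members had them in all 39 libraries.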

How the data were processed

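IP libraries (39, 1 per rat) of polyribosome-bound poly(A) mRNA were analysed; inputs were not used here. Per the submitters' processing notes and the methods, the authors trimmed reads with fastp 0.23.4 and quantified transcripts with Salmon 1.10.2, with sequence and GC bias corrections. They summed them per gene with tximport; DESeq2 1.42.1 was their test. The deposited values are expected counts in whole numbers, not normalized. No sample column was left out. Libraries were grouped by their titles.

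For each of 14 comparisons, counts were filtered with filterByExpr by group (minimum count 10) and TMM-normalized. They were tested with edgeR 4.0.16's quasi-likelihood test in R 4.3.3, with robust dispersions and 2 surrogate variables from sva 3.50.0. Standard errors are the absolute log2 difference divided by the square root of that test's F statistic. Benjamini-Hochberg adjustment ran over all genes, and genes were called at an adjusted p under 0.1. The steps were tested on simulated data. CPM use TMM factors over all 39 libraries. Log2 CPM use a pseudocount of 0.5. Within a stage, called members were compared by 2-sided exact permutation tests, on the libraries that had chosen them. DESeq2 1.42.0 was an alternative. The full list of alternatives is in the closing section. Depth per library limits genes near 10 counts.

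Members, lists, roles and tests were chosen with earlier results of these data known. All members are named; the log2 difference, standard error and adjusted p are given for called members, at most 12 per comparison, and for the 2 lowest p elsewhere. Most of the listed cell type markers could not be paired with a gene ID, and 1 further marker is not reported here.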

Additional observations from a re-analysis of the deposited data

Results flagged for a closer look

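Within-group outliers were looked for by Dixon's ratio in the 8 groups of 4 or 5 libraries, for 25 members (those called or with the lowest p in a comparison), a test that flags about 1 group in 20 by chance. Single libraries far from the others of their group were Prpf8 in proestrus D1 saline library 1 (210 CPM, the others 267 to 280), Dhx15 in diestrus D1 saline library 11 (98.6, the others 111 to 117) and Hnrnph1 in diestrus D1 saline library 27 (288, the others 260 to 266). Others were Rbm19 in proestrus D1 ketamine library 26 (15.7, the others 12.3 to 12.9), Rpl21 in diestrus D2 saline library 39 (123, the others 147 to 155) and Rps10 in proestrus D2 saline library 37 (19.5, the others 31.4 to 37.5). The last was Eif4h in diestrus D2 saline library 31 (394, the others 348 to 360). They are 7 of 200 group tests. No interaction of a member was called.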

How the results depend on the processing

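Each comparison was refitted with no or 1 surrogate variable, DESeq2, DESeq2 size factors, total counts, no filter, a stricter count filter (10 counts in every library), calls at 0.05, 1 shared model of the 39 libraries, sets of 8 library numbers as a block, and each library left out. Each library number occurs once, so no number pairs libraries. The sets of 8 are runs of consecutive numbers, each with 1 library of each of the 8 groups (1 set lacks proestrus D2 ketamine), and the labels do not say that a run marks a shared litter or day. No member was called in the ketamine, cycle and interaction comparisons under any of these fits, and the 2 members named in each kept their direction in all 590 refits. These members were chosen by their p in the same libraries, so that a kept direction follows in part from that choice. In saline rats the D2 against D1 count of 11 members became 3 in the shared model and ranged from 1 to 13 with a library left out; in ketamine rats the count of 5 became 2 at the threshold of 0.05, 3 with the block (Jmjd6 and Eif4h were lost), and 3 to 7 with a library left out. The log2 difference of Prpf8 in ketamine rats turned to -0.0001 without surrogate variables, -0.02 in the shared model and -0.01 with the block, with no call. The cause of these changes was not tested.

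Over all genes, the saline count of 3941 became 2463 with 10 counts in every library, which tests fewer genes, and 1848 in the shared model, and ranged from 1237 to 4229 with a library left out; the ketamine count of 2492 ranged from 2062 to 2822. For ketamine against saline, the 1 gene called in proestrus D1 became 16 by DESeq2 and 0 with no or 1 surrogate variable, total counts, no filter, the shared model or the block (0 to 3 with a library left out). The 3 genes in diestrus D1 became 10 by DESeq2 and 0 with no or 1 surrogate variable, at 0.05, in the shared model or with the block (0 to 5 with a library left out). The 0 in proestrus D2 became 1 by DESeq2 or no filter (0 to 1 with a library left out). For proestrus against diestrus the 0 became, in saline D1, 2 by DESeq2 and 1 with total counts (0 to 14 with a library left out), in ketamine D1, 2 by DESeq2, 3 with no filter and 1 with 10 counts in every library (0 to 1), in saline D2, 1 with no filter, and in ketamine D2, 4 by DESeq2 and 1 in the shared model (0 to 1). The interaction of cell type with treatment gave 1 by DESeq2, and that of ketamine with cycle in D1 gave 6 by DESeq2 and 2 with 10 counts in every library (0 to 3 with a library left out). The 4 or 5 libraries a group, with 2396517 counts in the shallowest, limit how small a difference could be detected.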

Other observations

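Rps10 values fell on 2 sides of a gap: 16 libraries lay between 13.7 and 22.8 CPM and 23 between 30.7 and 56.1, with none between, the widest gap among the 40 members with at least 5 libraries on each side (0.42 on the log2 scale, 0.16 for the next, Rps4x). In saline rats 7 of 10 D1 and 3 of 10 D2 libraries were on the low side, and in ketamine rats 4 of 10 and 2 of 9. All 5 diestrus D1 saline libraries were on the low side.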
